A study of Mus musculus with 4 samples.

Results

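The 7 genes studied here encode proteins by which endothelial cells (EC) sense or relay mechanical force. These genes, *Piezo1*, *Plxnd1*, *S1pr1*, *Gnaq*, *Gna11*, *Pkd1* and *Pkd2*, were followed in single EC from the mouse aorta. They were taken by symbol from the tables of unique molecular identifiers (UMIs, which count tagged transcripts) of 4 plates of 384 wells, and all 7 were found among 16408 nuclear genes. The cells came from 4 mice, 1 plate each, of which 2 were labelled *Epas1* EC-KO (Epas1fl/fl, Cdh5Cre/+) and 2 were labelled *Epas1* EC-WT (Epas1fl/fl, Cdh5+/+, littermates without Cre). The study names the Cre allele Cdh5CreERT2, and tamoxifen activates its Cre. All mice carried floxed *Epas1*, which encodes the hypoxia-inducible factor 2 alpha subunit, and all received tamoxifen by 5 daily intraperitoneal injections (2 mg per day) at 6 weeks of age and were analyzed 2 weeks later. Cdh5 drives Cre in EC of every vascular bed, and each plate holds cells of the whole aorta, from the ascending part to the abdominal part, so cells from regions of different flow were pooled. Live CD31+ CD45- cells were sorted singly after enzymatic digestion of the aorta and processed by SORT-seq, a plate-based method that sequences the 3′ ends of transcripts. A well counted as a cell if its UMIs outside spike-in and mitochondrial rows numbered 1000 or more and mitochondrial UMIs made up 25% or less, and 441 wells passed. Of these, 24 had more UMIs of 11 smooth muscle markers than of 14 EC markers and were set aside, and the 417 others, 144 and 92 from EC-KO mice 1 and 2 and 111 and 70 from EC-WT mice 1 and 2, are described below.

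PIEZO1 is a cation channel opened by membrane tension and by flow. Gnaq and Gna11 encode the alpha subunits of the Gq and G11 proteins, which pass signals from G protein-coupled receptors, including purinergic receptors engaged downstream of PIEZO1, to phospholipase C beta and calcium. S1pr1 encodes the main EC receptor for sphingosine-1-phosphate, couples to Gi proteins and stabilizes junctions under laminar flow. Plxnd1 encodes a receptor for class 3 semaphorins that can also act as a force sensor together with neuropilin 1 and VEGFR2. Pkd1 and Pkd2 encode polycystin 1 and polycystin 2, a receptor-like protein and a cation channel found in complexes at primary cilia and other membranes. KLF2 and KLF4 are zinc-finger transcription factors that laminar shear stress induces in EC, and they bind DNA at CACCC boxes and related GC-rich sequences. The level of each of the 7 genes was therefore set beside the sum of *Klf2* and *Klf4* in the same cells.

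Promoters were read from RefSeq windows of GRCm38.p6 as the 250 bases before the start site, for 6 of the genes (the table holds no window for *S1pr1*). CACCC, or GGGTG on the other strand, occurred in 2 of these 6, *Pkd2* and *Piezo1*, and in 52.0% of the 32851 windows of all genes. The promoters of both genes with a match are printed below, with the match in capitals, beside those of the G alpha pair *Gnaq* and *Gna11*, in which no match was found and whose levels are compared below. They lie at chr5:104459207-104459456 (plus strand), chr8:122551330-122551579 (minus strand), chr19:16132434-16132683 (plus strand) and chr10:81545163-81545412 (minus strand), in the order printed.
Pkd2: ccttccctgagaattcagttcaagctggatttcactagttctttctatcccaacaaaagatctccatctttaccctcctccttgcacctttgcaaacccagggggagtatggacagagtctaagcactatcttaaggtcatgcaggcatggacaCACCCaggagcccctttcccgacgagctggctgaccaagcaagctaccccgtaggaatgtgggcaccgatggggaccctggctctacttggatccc
Piezo1: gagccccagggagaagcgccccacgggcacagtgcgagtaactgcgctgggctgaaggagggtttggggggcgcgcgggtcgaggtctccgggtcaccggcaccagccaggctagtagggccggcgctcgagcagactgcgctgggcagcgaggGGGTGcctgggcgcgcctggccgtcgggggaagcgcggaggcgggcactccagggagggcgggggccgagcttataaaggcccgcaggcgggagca
Gnaq: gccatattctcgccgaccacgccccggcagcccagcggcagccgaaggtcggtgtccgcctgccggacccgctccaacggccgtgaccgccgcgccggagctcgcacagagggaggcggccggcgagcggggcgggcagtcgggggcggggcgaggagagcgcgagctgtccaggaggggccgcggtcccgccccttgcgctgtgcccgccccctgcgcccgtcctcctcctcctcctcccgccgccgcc
Gna11: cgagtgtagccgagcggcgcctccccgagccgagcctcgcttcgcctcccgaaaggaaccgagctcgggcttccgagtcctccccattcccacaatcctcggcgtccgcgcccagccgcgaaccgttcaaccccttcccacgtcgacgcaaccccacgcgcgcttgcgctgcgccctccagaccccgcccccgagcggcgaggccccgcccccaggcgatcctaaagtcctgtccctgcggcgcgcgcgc
The GC content of these windows was 52.8%, 74.0%, 79.2% and 73.2% in the same order. A match describes the letters only and shows no binding.

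The cells tested held 549570 to 1001705 nuclear UMIs per mouse, with a median of 3821 to 7419 UMIs per cell. Reads per UMI were 10.5 in EC-KO mouse 1 and 18.6 to 22.1 elsewhere. EC-KO mouse 2 and EC-WT mouse 1 shared a flow cell, and the other 2 mice were sequenced on 1 flow cell each. *Pecam1*, which encodes CD31, was at 4673 to 6705 CPM (counts scaled to a common total of nuclear UMIs per mouse) and was found in 98.6% to 100% of the cells of each mouse. *Ptprc*, which encodes CD45, had 1 UMI in EC-KO mouse 1 and 0 in the others, and the 6 immune markers found in the tables summed to at most 15.9 CPM per mouse, with 2 to 4 of them at 0. *Acta2*, a smooth muscle gene, was nevertheless found in 64.6% and 94.6% of the EC-KO cells and in 22.5% and 50% of the EC-WT cells, so the presence of single UMIs was not read as expression. *Epas1* was at 3103 and 3347 CPM in the EC-KO mice and at 3334 and 2415 CPM in the EC-WT mice, but counts of 3′ ends do not check the deletion. The cells kept numbered 255 from mice labelled EC-KO and 186 from mice labelled EC-WT. The methods of the study count more EC-WT than EC-KO cells, in nearly mirrored numbers. Whether the labels were exchanged could not be told from the files, and an exchange would turn the sign of every genotype difference below, all of which follow the labels of the deposit.

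*S1pr1* had the highest mean level of the 7 genes. It was at 530.1 and 793 CPM in EC-KO mice 1 and 2 and at 659.5 and 686 CPM in EC-WT mice 1 and 2, a mean of 667 ± 108 CPM (SD, n = 4), from 377 to 598 UMIs per mouse. Both extremes were EC-KO mice. UMIs of *S1pr1* were found in 343 of 417 cells, or 82.3% (95% confidence interval 78.2% to 85.8%, exact binomial, covering counting error only). In GRCm38 the gene spans chromosome 3, 115710433 to 115715072 (minus strand).

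The G alpha genes were at unequal levels. *Gnaq* (chromosome 19, 16132831 to 16387463, plus strand) was at 573 and 671 CPM in the EC-KO mice and at 486 and 602 CPM in the EC-WT mice, with UMIs in 80.8% of cells (95% interval 76.7% to 84.5%). *Gna11* (chromosome 10, 81528724 to 81545190, minus strand) was at 179.7 and 199 CPM in the EC-KO mice and at 226 and 211 CPM in the EC-WT mice, with UMIs in 57.1% of cells (52.2% to 61.9%). Per mouse there were 3.19, 3.37, 2.15 and 2.85 UMIs of *Gnaq* for each UMI of *Gna11*, so *Gnaq* was the higher of the pair in every mouse. At least 1 UMI of the pair was found in 93.8% and 93.5% of EC-KO cells and in 75.7% and 85.7% of EC-WT cells. These shares did not overlap between the groups, but they were not matched for depth, and no share over all genes was computed. EC-WT mouse 1, with the lowest share, also had the lowest median UMIs per cell. EC-WT mouse 2 was lower than EC-KO mouse 1 at medians of 5752.5 and 5964.5 UMIs. With cells thinned to equal UMIs, *Gnaq* was found in 30.6% and 40.2% of EC-KO and 31.5% and 38.6% of EC-WT cells. *Gna11* was then found in 19.4% and 17.4% against 14.4% and 14.3%, and the pair was not counted after thinning.

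*Plxnd1* (chromosome 6, 115954811 to 115995005, minus strand) was at 118 and 198 CPM in the EC-KO mice and at 176 and 142 CPM in the EC-WT mice, and 48.7% of cells (43.8% to 53.6%) held a UMI of it. *Pkd2* (chromosome 5, 104459450 to 104505819, plus strand) was at 93.8, 134, 98.2 and 111 CPM in the same order of mice, with UMIs in 37.2% of cells (32.5% to 42.0%). *Pkd1* (chromosome 17, 24549834 to 24596508, plus strand) was at 20.0, 38.5, 34.3 and 30.9 CPM, from 17 to 29 UMIs per mouse. By mean CPM the transcript of *Pkd2* was thus 3.53 times as abundant as that of *Pkd1*, and it was higher in 4 of 4 mice. Reads per UMI also differed, at 12.9 to 24.1 for *Pkd2* and 3 to 6.45 for *Pkd1*, and their part in this ratio was not tested. *Piezo1* (chromosome 8, 122481698 to 122551329, minus strand) gave 10, 3, 6 and 4 UMIs, that is 9.98, 3.98, 9.36 and 7.28 CPM, against 2.99 to 5.46 CPM for the limit that a count of 0 allows (3 UMIs per mouse). Only 19 of 417 cells held a UMI of it, or 4.56% (2.77% to 7.02%), so levels of *Piezo1* per cell could not be compared at this depth.

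**Figure D1:**
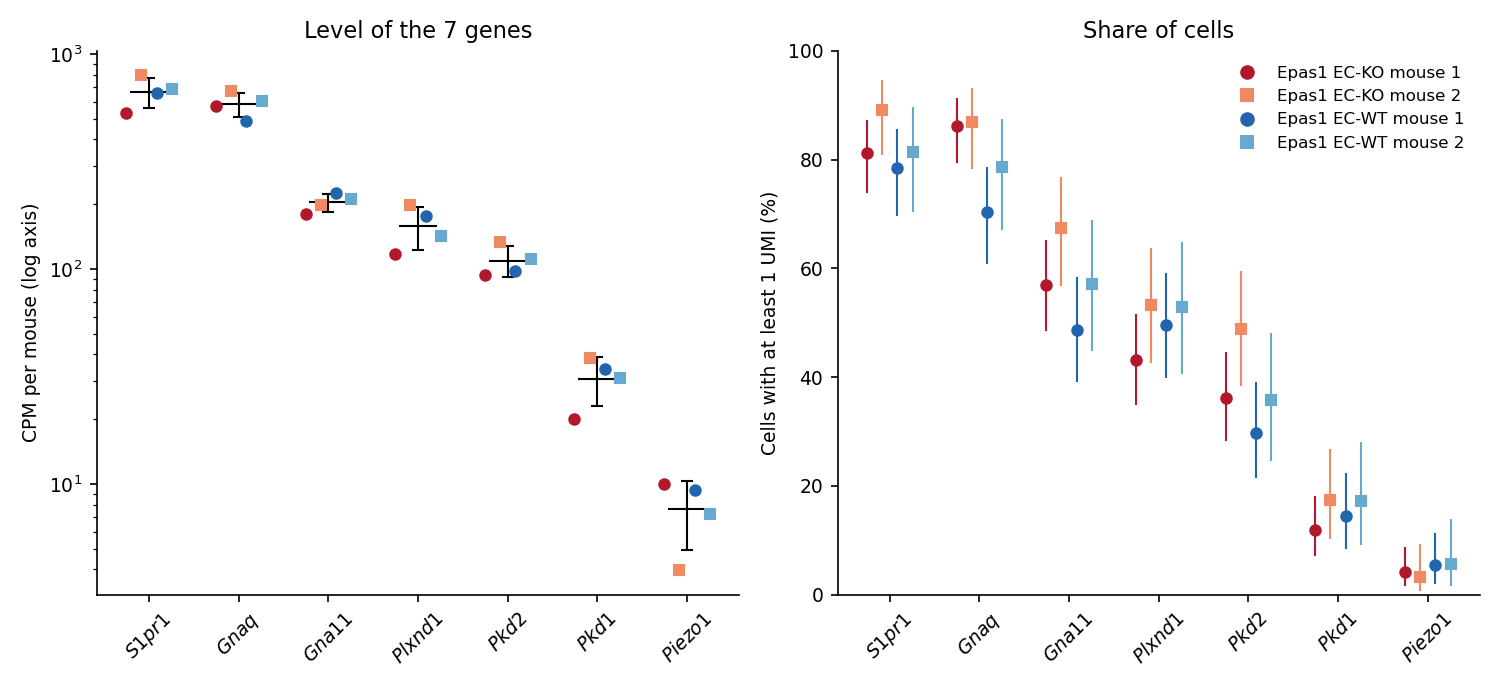
Levels of the 7 genes in each mouse, as CPM over nuclear UMIs on a log axis (left; black bars: mean ± SD of 4 mice) and as the percentage of cells with at least 1 UMI (right; lines: 95% exact binomial intervals). The mean level falls from 667 CPM for *S1pr1* to 7.65 CPM for *Piezo1*, and by CPM mice of both groups are interleaved for most genes.

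Each UMI marks 1 transcript by its 3′ end, so CPM were compared between genes without a correction for length. Reads per UMI differed between genes, for example 21.8 to 42.4 for *S1pr1* and 3 to 6.45 for *Pkd1*. Their part in comparisons of levels between genes was not tested. In the order *S1pr1*, *Gnaq*, *Gna11*, *Plxnd1*, *Pkd2*, *Pkd1* and *Piezo1*, the mean levels were 667, 583, 204, 158, 109, 30.9 and 7.65 CPM, and their SD over 4 mice were 108, 76.5, 19.6, 35.5, 18, 7.93 and 2.71 CPM. *S1pr1* and *Gnaq* did not differ beyond their spread, since *Gnaq* was the higher in 1 of 4 mice. The ranges over mice overlapped also between *Gna11* and *Plxnd1* and between *Plxnd1* and *Pkd2*, although the order was the same within each of the 4 mice. The ranges did not overlap between *Gnaq* and *Gna11*, between *Pkd2* and *Pkd1*, or between *Pkd1* and *Piezo1*. *S1pr1* ranked 205 and *Gnaq* 245 among the 15947 genes with a UMI, while *Piezo1* ranked 9433. For reference, *Klf2* was at 981 ± 456 CPM and *Klf4* at 745 ± 222 CPM (SD, n = 4). The coefficient of variation over mice was 46.4% for *Klf2*. Among the 7 genes it was highest for *Piezo1* (35.4%) and *Pkd1* (25.6%), the genes with the fewest UMIs, and lowest for *Gna11* (9.61%).

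By mean level *S1pr1* was above the other S1P receptors listed, *Gnaq* above the other alpha subunits of the Gq class and *Piezo1* above *Piezo2*. Of the S1P receptors, *S1pr4* followed *S1pr1* at 35.8 ± 6.17 CPM and *S1pr2*, *S1pr3* and *S1pr5* were at 5.13, 0.704 and 1.47 CPM. Of the other alpha subunits of the Gq class, *Gna14* was at 6.03 CPM and *Gna15* at 3.48 CPM, far under *Gnaq* and *Gna11*. *Piezo2* had 2 UMIs in all, fewer than *Piezo1*. *Plxnd1* was not the leading plexin by mean level, since *Plxna4* was at 205 ± 18 CPM and *Plxna2* at 189 ± 34.8 CPM (SD, n = 4 mice). Their ranges over mice, 191 to 232 and 136 to 207 CPM, overlapped that of *Plxnd1*, 118 to 198 CPM. The coreceptor *Nrp1* was at 1063 ± 179 CPM and *Kdr*, which encodes VEGFR2, was at 14.7 ± 1.81 CPM. Of the G proteins to which S1PR1 couples, *Gnai2* was at 1225 ± 86.7 CPM and *Gnai3* at 135 ± 15.8 CPM.

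**Figure D2:**
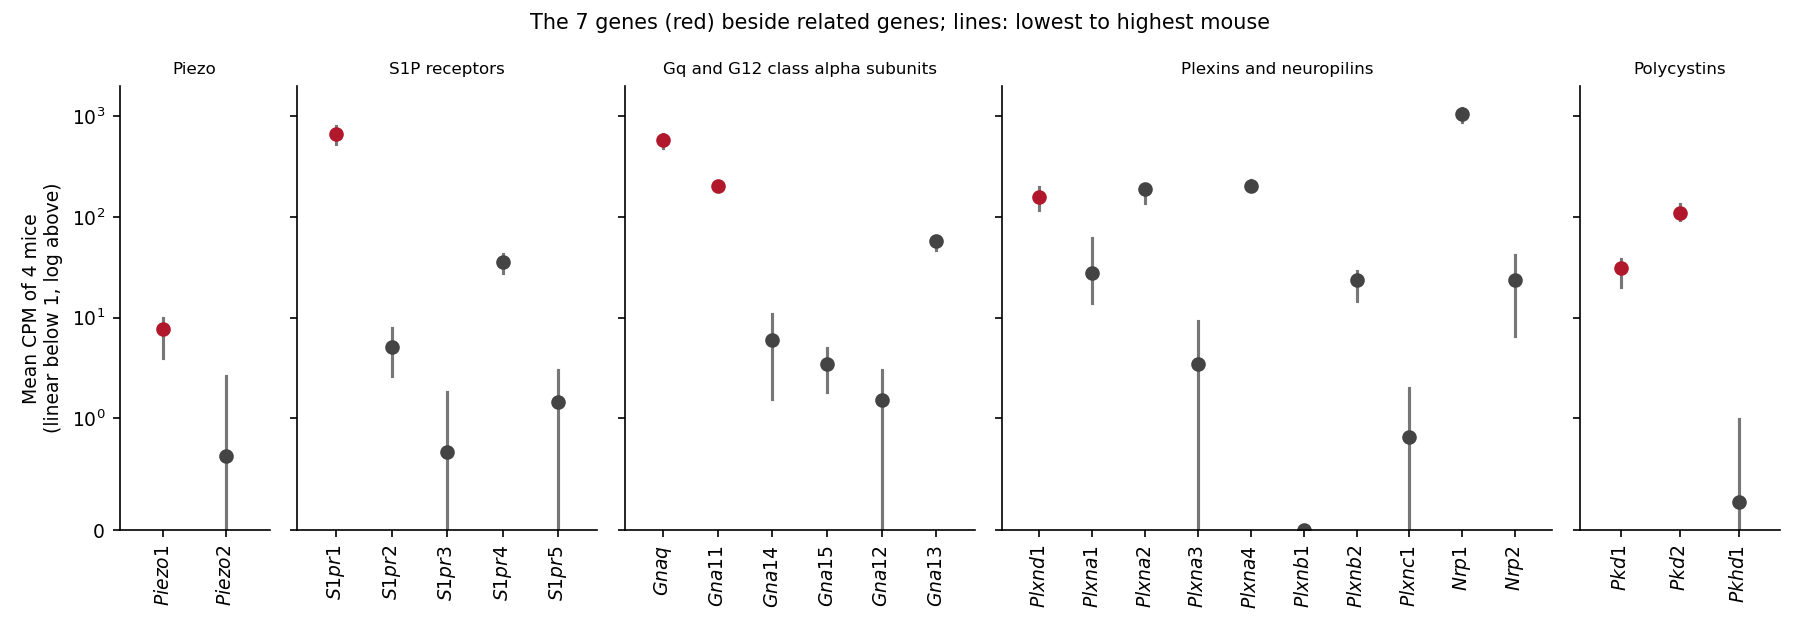
Mean CPM of 4 mice for the 7 genes (red) and for related genes (grey), on an axis that is linear below 1 and logarithmic above it; lines run from the lowest to the highest mouse. *S1pr1* stands above the other S1P receptors and *Gnaq* above the other alpha subunits of the Gq class. *Plxnd1* lies beside *Plxna2* and *Plxna4* and under *Nrp1*.

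In the 24 cells with more smooth muscle than EC marker UMIs, levels were given as sums over all mice, with medians of 5151 UMIs per cell against 5631 in the cells tested. *S1pr1* was there at 139 CPM with UMIs in 37.5% of cells (95% interval 18.8% to 59.4%) and *Gnaq* at 149 CPM in 37.5% of cells. *Plxnd1* was at 43.1 CPM from 9 UMIs, and *Piezo1* had 0 UMIs in the 24 cells, which allows a share of cells with a UMI of up to 14.2% (exact binomial), above the share in the cells tested, and does not limit the share that expresses it. *Gna11* was at 206 CPM, *Pkd1* at 71.9 CPM and *Pkd2* at 71.9 CPM. These sums had no replicate check, because 13 and 6 of the cells came from the EC-KO mice and 3 and 2 from the EC-WT mice. In the 120 wells of plate rows L to P of each plate, none of which was kept, *S1pr1* had 5, 3, 6 and 9 UMIs among 8423, 7301, 4416 and 8651 nuclear UMIs, *Gnaq* had 4, 3, 2 and 11, and *Piezo1* and *Pkd2* had 0.

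Levels were then compared between cells of different depth. In 4 depth bins per mouse, with medians from 1538 to 13695 UMIs, *S1pr1* was at 629, 700.1, 693 and 648 CPM from the shallowest to the deepest bin, and the SD over mice were 72.3 to 240.5 CPM. *Gnaq* was at 423, 599, 549.7 and 615 CPM, lowest in the shallowest bin, and *Plxnd1* at 179, 193, 180.4 and 136 CPM, lowest in the deepest. When every cell was thinned to 1000 UMIs, the variance of UMIs over cells divided by their mean (1 where counting alone sets the spread) was 1.27 for *S1pr1*, 1.22 for *Gnaq*, 1.20 for *Plxnd1*, 1.15 for *Gna11*, 1.07 for *Pkd2*, 0.983 for *Pkd1* and 0.993 for *Piezo1*. It was 1.61 for *Klf2* and 1.42 for *Klf4*. This ratio tends to 1 as the mean falls, so genes of different abundance were not ranked by it.

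The first comparison asked whether the levels differed between the labelled genotypes. UMIs were summed per mouse, and mice were the replicates. With edgeR's quasi-likelihood test and Benjamini-Hochberg adjustment at 0.05, 0 of 8116 genes tested were called, a percentage called of 0%, and 447 genes (5.51%) had an unadjusted *P* under 0.05, whereas DESeq2 called 2 genes. None of the 6 members tested was called or had an unadjusted *P* under 0.05, and *Piezo1* had too few UMIs to be tested.

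*S1pr1* was at 662 ± 186 CPM in EC-KO and 673 ± 18.7 CPM in EC-WT mice (SD, n = 2 each), a log2 fold change of 0.00 with EC-KO over EC-WT throughout (95% interval -0.43 to 0.43). For *Plxnd1* it was 0.00 as well (-0.53 to 0.53), from 158 ± 56.5 and 159 ± 24.2 CPM. *Gnaq* was at 622 ± 69.5 against 544 ± 81.9 CPM, with a log2 fold change of 0.23 (-0.17 to 0.63, edgeR adjusted *P* = 0.934) that was 0.0977 without EC-WT mouse 1 and 0.36 without EC-WT mouse 2. *Gna11* was at 189 ± 13.6 against 219 ± 10.6 CPM, with a log2 fold change of -0.18 (-0.60 to 0.24, edgeR adjusted *P* = 0.957). By CPM *Gna11* was the only one of the 7 genes whose groups did not overlap, both EC-KO mice lying below both EC-WT mice. This held for 20% of all genes tested, while the groups of 35.3% did not overlap in one direction or the other. By the share of cells with a UMI, which was not matched for depth, the groups of *Gna11* overlapped. Those of *Gnaq*, *Pkd2* and *Piezo1* did not overlap by that measure, for which no share over all genes was computed. The direction of the CPM difference of *Gna11* turned when cells were thinned to 1000 UMIs, where *Gna11* was at 250 and 206.5 CPM in the EC-KO mice and at 144 and 142.9 CPM in the EC-WT mice (log2 fold change 0.76, edgeR adjusted *P* = 0.692). *Pkd2* changed by 0.15 (-0.37 to 0.67) and *Pkd1* by -0.16 (-1.05 to 0.72) on the log2 scale, neither of which was called. The intervals include 0 and changes on either side of it, and the test does not show that the genotypes were alike. Between the mice on the same flow cell, with 1 mouse per group and no test, the log2 fold change was 0.45 for *Gnaq*, 0.43 for *Pkd2*, 0.25 for *S1pr1*, 0.15 for *Plxnd1*, 0.15 for *Pkd1* and -0.20 for *Gna11*.

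*Klf2* was at 770 and 1612 CPM in the EC-KO mice and at 987 and 557 CPM in the EC-WT mice, with a log2 fold change of 0.64 (95% interval 0.00 to 1.28, edgeR adjusted *P* = 0.880). *Klf4* was at 723 and 1040 CPM against 714 and 502 CPM, with a log2 fold change of 0.56 (0.09 to 1.03, edgeR adjusted *P* = 0.880), and neither was called. In the same cells 11 smooth muscle markers summed to 552 and 931 CPM in the EC-KO cells and to 206 and 329 CPM in the EC-WT cells, with 1 to 4 of them at 0. Likewise 8 fibroblast markers summed to 2666 and 1836 CPM in the EC-KO cells and to 1241 and 1550 CPM in the EC-WT cells, with at most 1 at 0. Of these, 5 smooth muscle and 7 fibroblast genes were tested and 0 were called, although the log2 fold change was above 0 for each of them. An unadjusted edgeR *P* under 0.05 was found for 3 of the 5 and 3 of the 7, beside 5.51% of all genes tested. The lowest in each list were *Acta2* and *Lum*, with log2 fold changes of 2.08 and 3.95 (edgeR adjusted *P* = 0.166 and 0.0989). The part of these cells' RNA in the differences above was not tested.

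Pathway genes around the members were compared between genotypes in the same way. Of 9 tested mechanosensitive and related channels, 11 S1P pathway genes, 14 Gq pathway genes, 11 semaphorin and plexin genes, 24 genes of the junctional complex and the MEK5-ERK5 cascade and 11 genes of cilia and polycystin maturation, 0 were called between genotypes. Their median log2 fold changes were 0.01, 0.03, 0.12, 0.15, 0.02 and 0.13, beside 0.00 over all 8116 genes. At an unadjusted edgeR *P* under 0.05 there were 3 of these genes, beside 5.51% of all genes tested. They were *Itpr2*, *Nrp1* and *Nrp2*, with log2 fold changes of 0.55, 0.46 and -2.52 (edgeR adjusted *P* = 0.852, 0.880 and 0.188), not called.

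The second comparison asked how the 7 genes relate to *Klf2* plus *Klf4*. Within each depth bin of each mouse, cells were divided at the median of the summed *Klf2* and *Klf4* UMIs per nuclear UMI into Klf-low and Klf-high cells, which differ by construction in this sum. By CPM *Klf2* and *Klf4* were each higher in Klf-high cells of 4 of 4 mice. The middle cell of a bin with an odd number of cells was left out, which left 410 of 417 cells. The sum of *Klf2* and *Klf4* was 474 against 2351 CPM and 1457 against 3796 CPM in EC-KO mice 1 and 2, and 982 against 2392 CPM and 474 against 1687 CPM in EC-WT mice 1 and 2. UMIs were summed per mouse and class, and edgeR was run with the mouse as a block on these 8 sums. Of 5507 genes tested, without *Klf2* and *Klf4*, 55 were called (0.999%), 26 higher and 29 lower in Klf-high cells. None of the 5 members tested was called or had an unadjusted *P* under 0.05 (9.21% of all genes tested had one), and *Pkd1* and *Piezo1* had too few UMIs to be tested.

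*S1pr1* was at 373 CPM in Klf-low and 662 CPM in Klf-high cells of EC-KO mouse 1 and at 640.4 and 933 CPM in those of EC-KO mouse 2. In EC-WT mouse 1 it was at 661 and 663 CPM, and in EC-WT mouse 2 at 747 and 626 CPM. The gene was thus higher in Klf-high cells of both EC-KO mice, nearly level in 1 EC-WT mouse and lower in the other. Its log2 fold change over all mice was 0.25 (95% interval -0.05 to 0.55, SE 0.14, edgeR adjusted *P* = 0.654), and it was 0.07 without EC-KO mouse 1, 0.16 without EC-KO mouse 2 and 0.41 without EC-WT mouse 2. It was 0.07 where cells were thinned to 1000 UMIs before they were divided and 0.17 where unthinned cells were divided within bins of depth and immediate early genes. In the classes made before thinning, the share of thinned cells with a UMI went from 25% to 43.1% in EC-KO mouse 1 but from 56.8% to 50% in EC-KO mouse 2. In EC-KO mouse 1 the median mitochondrial share also differed, at 4.67% in Klf-low and 8.70% in Klf-high cells, and its part in the result was not tested.

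*Gnaq* was at 515 and 622 CPM in Klf-low and Klf-high cells of EC-KO mouse 1, at 663 and 708 CPM in EC-KO mouse 2, at 429 and 529.8 CPM in EC-WT mouse 1 and at 544 and 665 CPM in EC-WT mouse 2. It was higher in the Klf-high cells of 4 of 4 mice, by 93.4 ± 33.3 CPM (SD, n = 4), a direction that 10.8% of all genes tested shared. The log2 fold change was 0.19 (-0.05 to 0.44, SE 0.12, edgeR adjusted *P* = 0.695) and the gene was not called. It was 0.03 where cells were also matched for their level of immediate early genes, and -0.27 where cells were thinned to 1000 UMIs before they were divided. In the classes made before thinning, the share of thinned cells with a UMI of *Gnaq* was higher in Klf-high cells of 4 of 4 mice. The means of this share were 29.5% in Klf-low and 40.0% in Klf-high cells. How many of all genes share that direction by this measure was not computed.

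*Gna11* was higher in Klf-high cells of 3 mice, as were 37.5% of all genes tested in at least 3, with 177 and 182 CPM and 208 and 187 CPM in EC-KO mice 1 and 2, and 199.6 and 245 CPM and 185 and 234 CPM in EC-WT mice 1 and 2 (log2 fold change 0.08, -0.25 to 0.41). *Plxnd1* was at 118 in both classes of EC-KO mouse 1, at 168 and 228 CPM in EC-KO mouse 2, at 209 and 136 CPM in EC-WT mouse 1 and at 144 and 131 CPM in EC-WT mouse 2 (log2 fold change -0.10, -0.49 to 0.29). *Pkd2* was at 93.9 and 93.8 CPM, 128 and 138 CPM, 78.5 and 121 CPM, and 129 and 99.9 CPM in the same order of mice (log2 fold change 0.04, -0.39 to 0.48). The direction differed between mice for each of these 3 genes. *Pkd1* had 9 and 11, 9 and 18, 6 and 15, and 8 and 9 UMIs in Klf-low and Klf-high cells, higher in 4 of 4 mice, but from at most 18 UMIs per class. By CPM 10.8% of the genes tested shared that direction, and *Pkd1* was nearly level in EC-KO mouse 1, at 19.7 and 20.2 CPM. In the same classes, the share of thinned cells with a UMI of *Pkd1* was higher in Klf-high cells of 1 of 4 mice. The means of this share were 2.34% in Klf-low and 1.93% in Klf-high cells. *Piezo1* had 8 and 2, 2 and 1, 2 and 4, and 1 and 2 UMIs, lower in Klf-high cells of both EC-KO mice and higher in those of both EC-WT mice, as 5.43% of the genes tested were (11.5% with either genotype the lower), and no direction was read from so few UMIs.

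**Figure D3:**
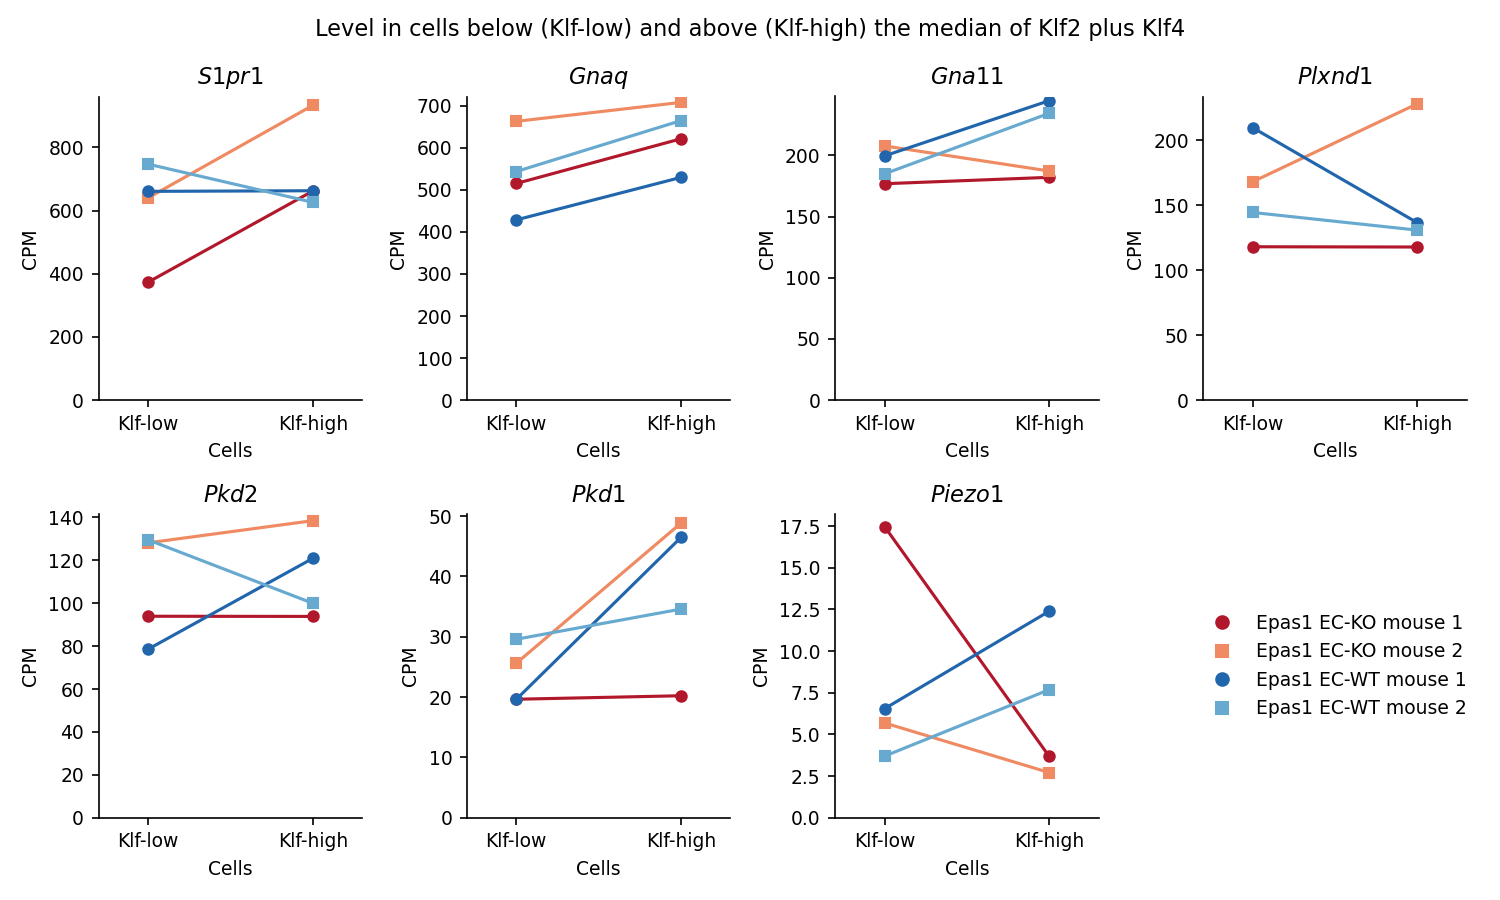
CPM of the 7 genes in Klf-low and Klf-high cells of each mouse, that is cells below and above the median of *Klf2* plus *Klf4* within depth bins; each line joins both classes of 1 mouse. *Gnaq* and *Pkd1* are higher in Klf-high cells in all 4 mice, as are 10.8% of all genes tested, and *Pkd1* has at most 18 UMIs per class. The lines of *S1pr1* rise in the EC-KO mice while that of EC-WT mouse 2 falls.

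The third comparison asked whether the relation to *Klf2* plus *Klf4* differed between the labelled genotypes. Of 5507 genes tested for an interaction of genotype and class, 0 were called by edgeR, a percentage called of 0%, with 222 (4.03%) at an unadjusted *P* under 0.05, and DESeq2 called 0 as well. *S1pr1* had the largest value of the 5 members tested, a log2 fold change between classes that was 0.78 higher in EC-KO than in EC-WT mice (SE 0.23, 95% interval 0.28 to 1.27). Its *P* of 0.00432 became an edgeR adjusted *P* of 0.980 over all genes, and the alternatives gave adjusted *P* values from 0.292 to 0.9998, so the difference did not pass the test. For *Plxnd1* the value was 0.61 (-0.16 to 1.37), for *Gna11* -0.39 (-1.04 to 0.25), for *Gnaq* -0.14 (-0.64 to 0.35) and for *Pkd2* -0.10 (-1.01 to 0.81).

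**Figure D4:**
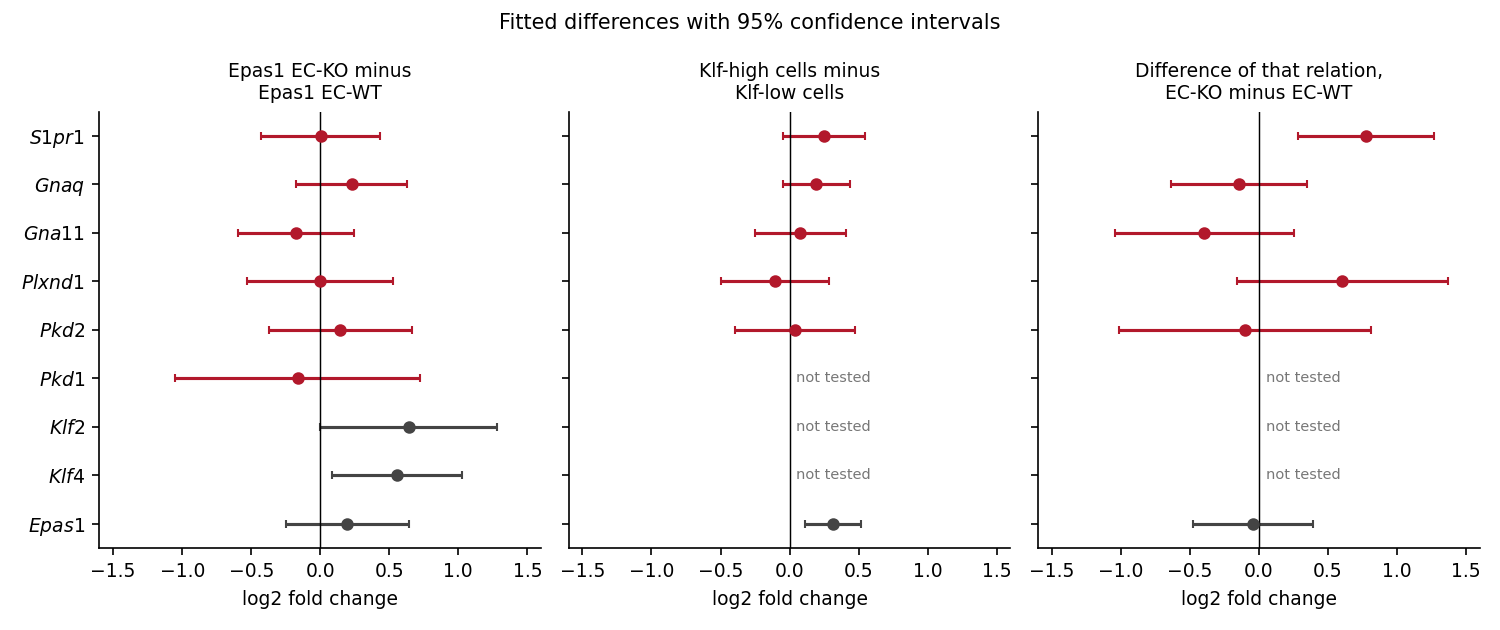
Log2 fold changes with 95% confidence intervals from the edgeR fits for genotype (left), for Klf-high over Klf-low cells (middle) and for the difference of the latter between genotypes (right); members are red where tested, 6 in the left panel (without *Piezo1*) and 5 in the others (without *Piezo1* and *Pkd1*). Their intervals include 0 in the left and middle panels, and that of *S1pr1*, 0.28 to 1.27 before adjustment, lies above 0 in the right panel.

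Across single cells, Spearman correlations between each gene and *Klf2* plus *Klf4*, both per nuclear UMI, were described within each mouse, whose cells share a plate and differ in depth. For *S1pr1* they were 0.36, 0.14, 0.02 and -0.08 over 144, 92, 111 and 70 cells of EC-KO mice 1 and 2 and EC-WT mice 1 and 2. For *Gnaq* they were 0.24, -0.07, 0.06 and 0.16. With every cell thinned to 1000 UMIs the values were 0.13, -0.10, -0.03 and 0.16 for *S1pr1* and 0.17, -0.16, -0.09 and 0.02 for *Gnaq*, so neither gene kept 1 direction over mice. *Epas1* had values of 0.26, 0.31, 0.20 and 0.26, and of 0.11, 0.10, 0.09 and 0.11 after thinning, positive in every mouse. Between the members themselves, the mean over mice of the thinned correlation lay between -0.12, for *Gnaq* and *Pkd1*, and 0.08, for *Plxnd1* and *Pkd2*. The value for *Gnaq* and *Pkd1* covers 3 mice, since only 2, 0, 3 and 3 thinned cells of the 4 mice held a UMI of *Pkd1*.

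*Epas1* was at 2882 and 3289 CPM, 2738 and 3929 CPM, 3060 and 3640.5 CPM, and 2031 and 2852 CPM in Klf-low and Klf-high cells of the 4 mice, higher in each. Its log2 fold change of 0.32 (95% interval 0.11 to 0.52, SE 0.10) had an edgeR adjusted *P* of 0.167, and it was called in 4 of 18 alternatives. With cells thinned to 1000 UMIs before they were divided, the log2 fold change of *Epas1* was 0.11 (edgeR adjusted *P* = 0.966).

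Among the pathway genes tested, 1 was called for the Klf classes, beside 0.999% of all 5507 genes tested. *Nrp1*, the semaphorin and VEGF coreceptor that pairs with PLXND1, fell in Klf-high cells with a log2 fold change of -0.56 (SE 0.13, edgeR adjusted *P* = 0.0339). It was at 1500 and 977 CPM and 1662 and 852 CPM in Klf-low and Klf-high cells of the EC-KO mice, at 873.7 CPM in both classes of EC-WT mouse 1 and at 1091 and 807 CPM in EC-WT mouse 2. The fall was thus seen in 3 mice, and *Nrp1* was no longer called without EC-KO mouse 1 (log2 fold change -0.52, edgeR adjusted *P* = 0.165) or without EC-KO mouse 2 (-0.40, 0.310). With cells thinned to 1000 UMIs it was -0.11 (edgeR adjusted *P* = 0.966), and *Nrp1* was called in 9 of 18 alternatives. Of the semaphorin and plexin list, 8 genes were tested, with a median log2 fold change of -0.02 beside -0.01 over all 5507 genes. No gene was called among 6 channels, 9 S1P pathway genes, 12 Gq pathway genes, 20 genes of the junctional complex and MEK5-ERK5 cascade and 7 genes of cilia and polycystin maturation, with medians of 0.19, 0.02, -0.05, 0.12 and 0.03. *Trpv4*, which encodes a flow-responsive calcium channel, and *Nos3*, which encodes endothelial nitric oxide synthase, had log2 fold changes of 0.75 (edgeR adjusted *P* = 0.250) and 0.33 (0.314), not called, and were picked after their values were seen.

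Immediate early genes, which tissue dissociation induces, moved with the Klf classes. The 16 listed genes summed to 1055 CPM in Klf-low and 1999 CPM in Klf-high cells of EC-KO mouse 1, to 1634 and 3435 CPM in EC-KO mouse 2, to 1725 and 2386 CPM in EC-WT mouse 1 and to 1117 and 2145 CPM in EC-WT mouse 2. Of the 13 tested, 5 rose (*Jun*, *Junb*, *Fos*, *Ier2* and *Btg2*) and 0 fell, against 0.999% of all genes tested called, with a median log2 fold change of 0.99. The calls depended on the processing, with 0 of 2 tested after thinning to 1000 UMIs, 0 of 13 with no replicate block and 2 of 13 within immediate early bins. *Jun*, for example, had a log2 fold change of 0.83 (SE 0.14, edgeR adjusted *P* = 0.00348). *Emcn*, which encodes endomucin of the EC surface, fell by 1.29 on the log2 scale (SE 0.21, edgeR adjusted *P* = 0.00331), and it was the only one called of 11 tested EC markers. *Edn1*, which encodes endothelin 1, and *Thbs1*, which encodes thrombospondin 1, had log2 fold changes of -1.68 and -1.98 (edgeR adjusted *P* = 1.07e-05 and 0.00348), and were picked after their values were seen. The 11 smooth muscle markers, of which 0 of 5 tested were called, had sums of 738 and 395 CPM, 1047 and 860.2 CPM, 236 and 174 CPM, and 422 and 231 CPM in Klf-low and Klf-high cells of the 4 mice, with 1 to 5 of them at 0. The part of immediate early or smooth muscle genes in the values of the members was not tested beyond the matched comparison above.

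Genes whose level followed each member most closely were sought over 32 groups of cells (4 mice, each with 4 depth bins and both Klf classes), as the Pearson correlation of log2(CPM + 50) after each mouse's mean was subtracted, among 1845 genes with a mean of at least 100 CPM. For *S1pr1* they were *Tmem2* (0.65), *Epb4.9* (0.63) and *Zc3h11a* (0.62). For *Gnaq* they were *Ceacam1* (0.73), *Zbtb20* (0.72) and *Rock2* (0.69), and for *Gna11* they were *S100a11* (0.70), *Ubr3* (0.62) and *Ifnar1* (0.57). The genes nearest to *Plxnd1* were *Slc50a1* (0.76), *Gimap4* (0.62) and *Gaa* (0.61), and those nearest to *Pkd2* were *Crk* (0.71), *Lrrc58* (0.68) and *Hsph1* (0.65). No gene appeared for more than 1 member. *Klf2* and *Klf4* were far down these orders, at places 704 and 488 for *S1pr1* (0.09 and 0.16) and 682 and 305 for *Gnaq* (0.13 and 0.31). The groups of 1 mouse share a library, and these values are the highest of many, so they describe the data only.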

How the data were processed

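Aortic EC of 4 mice, 1 plate each, were profiled by SORT-seq. For each plate the authors deposited UMI counts, read counts and expected counts of transcripts, the last corrected for UMI saturation, as tables of genes by wells without normalization. The submitters' processing notes name BWA 0.7.15, Seurat, GRCm38 and mm10. Deposited UMI counts were used as the main counts. CPM were computed over nuclear UMIs (1 UMI was worth 0.998 to 1.82 CPM). Wells are numbered alike on all plates, so shared barcodes carry no information on shared cells. No doublet caller was run, but an alternative left out cells with more than 3 times their mouse's median UMIs. Of the kept wells, 8 had smooth muscle and EC marker UMIs within 2-fold of each other.

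Sums were tested with edgeR 4.0.16 (TMM, filterByExpr, quasi-likelihood test, adjusted *P* of at most 0.05 over all genes tested) in R 4.3.3, after tests on simulated data, with DESeq2 1.42.0 as an alternative. Intervals are at 95% and cover counting error only where they are binomial. Mice were numbered within groups by the labels. Positions are from GENCODE M21 and promoters from RefSeq. Other steps used Python 3.11.15.

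The members and lists were chosen with earlier results of these data known. The genes named are the 7 members, *Klf2*, *Klf4* and *Epas1*, called genes of the pathway lists (at most 4 a list), the 3 genes most like each member with at least 200 UMIs, and genes of the marker lists. *Itpr2*, *Nrp2*, *Trpv4*, *Nos3*, *Edn1*, *Thbs1* and the related genes given for their levels were named outside this rule after their values were seen. In the tables were 6 of 10 immune, 3 of 6 lymphatic (20.3 to 33.2 CPM summed), 19 of 20 S1P pathway, 22 of 25 Gq pathway and 18 of 20 semaphorin and plexin genes, and all of the other lists.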

Additional observations from a re-analysis of the deposited data

Results flagged for a closer look

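*Piezo1* had ratios of opposite sign in the labelled genotypes. Its log2 ratio of Klf-high to Klf-low CPM was -2.25 and -1.07 in EC-KO mice 1 and 2 and 0.92 and 1.06 in EC-WT mice 1 and 2, so that both mice of one group lay below 0 and both of the other above it. These signs rest on 1 to 8 UMIs per class and mouse, too few to read a direction from. Over single cells the Spearman correlation of *Piezo1* with *Klf2* plus *Klf4* per UMI did not split in this way, at -0.15 and -0.02 in EC-KO mice 1 and 2 and -0.01 and 0.04 in EC-WT mice 1 and 2. The mean ratio in EC-KO minus that in EC-WT was -2.65, from 10, 3, 6 and 3 UMIs in the cells divided (1 further UMI of EC-WT mouse 2 lay in a cell left out of both classes), and the difference was not tested. Both EC-KO mice lay below 0 and both EC-WT mice above it for 5.43% of the genes tested, and 11.5% split this way with either genotype the lower.

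*Gnaq* in EC-KO mouse 2 stood apart from the other 3 mice. Its log2 ratio of Klf-high to Klf-low CPM was 0.09, against 0.27, 0.31 and 0.29 in the others, and the gap to the nearest mouse took up 0.835 of the whole range, above the critical value for 4 samples. Chance gives such a gap in about 1 of 20 groups.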

How the results depend on the processing

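No alternative called any of the genes followed, which were 6 between genotypes (without *Piezo1*) and 5 in the other comparisons (without *Piezo1* and *Pkd1*). Between genotypes, where 0 genes were called, the count was 1 with a minimum of 2000 UMIs per cell, 10 with all kept wells, 1 with no limit on the mitochondrial share, 5 without cells over 3 times the median UMIs, 19 with no filter on low counts and 2 with DESeq2. It was 16 to 72 with 1 mouse left out (72 without EC-WT mouse 1), where the lone mouse is assumed to vary like the others. The log2 fold change of *Plxnd1*, near 0, was 0.0075 with no filter, 0.0025 with DESeq2, 0.15 on the shared flow cell and -0.37 to 0.31 with 1 mouse left out. That of *S1pr1*, also near 0, was -0.0125 and -0.0055 with minimums of 500 and 2000 UMIs, -0.0052 with no mitochondrial limit, -0.0944 with all kept wells, -0.15 after thinning, -7.9e-05 with DESeq2 and -0.27 to 0.24 with 1 mouse left out. *Gna11* was at 0.76 after thinning. *Pkd1* was at 0.0543 with all kept wells and 0.15 on the shared flow cell, and *Epas1* at -0.0079 on the latter. With 1 mouse left out, *Gnaq* ranged from 0.0977 to 0.36, *Gna11* from -0.25 to -0.11, *Pkd1* from -0.64 to 0.24, *Pkd2* from -0.0852 to 0.36 and *Epas1* from -0.0374 to 0.47.

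Between Klf classes, 55 genes became 88 with a minimum of 2000 UMIs, 84 with the extremes of 3 classes, 34 with no depth bins, 24 within bins of immediate early genes, 96 with no filter, 27 with DESeq2, 1 after thinning (885 genes tested) and 28 to 52 with 1 mouse left out (30 and 28 without EC-KO mice 1 and 2). *Plxnd1* turned to 0.0711 when *Klf4* alone divided the cells, *Gnaq* to -0.27 after thinning, and *Gna11* to -0.0090 and -0.0588 with *Klf2* or *Klf4* alone. *Pkd2* turned to -0.0810 with no depth bins, -0.12 within immediate early bins and -0.0563 with *Klf4* alone. With 1 mouse left out, *Plxnd1* ranged from -0.30 to 0.0887 and *Pkd2* from -0.10 to 0.16. For the difference between genotypes, 0 calls became 1 with a minimum of 2000 UMIs, 2 with the extremes of 3 classes, 1 with no depth bins and 3 to 10 with 1 mouse left out, when *Pkd2* ranged from -0.57 to 0.38 and *Epas1* from -0.22 to 0.13. The cause was not tested for any of these.

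The mouse numbers share only a number, and deviations of same-numbered mice from their group means had a correlation of -0.03 over 8116 genes. With the replicate block the genotype test called 2 genes and the log2 fold change of *S1pr1* was -0.0182. With no replicate block the Klf comparison called 5 genes, and the test of the difference 0. Depth limits *Piezo1* (23 UMIs) and *Pkd1* (88 UMIs) most.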
